A study of Mus musculus with 12 samples.

Results

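The middle of the time course of wild-type macrophages was compared with its ends. The level of each gene at 4 h of MALP-2 was set against the mean of its levels at 2 h and 8 h, which used 3 of the 12 arrays of the series. This quantity is called the middle-time difference. Since 2, 4 and 8 h are evenly spaced on a log2 scale of time, it is the departure of the 4 h level from the straight line between 2 h and 8 h. Of 18194 genes, each read from 1 probeset, 12098 counted as measured, because at least 1 wild-type or IRAK2-knockout array at 2, 4 or 8 h reached a log2 level of 3.83, the median of all values on 11 arrays. A gene past 2-fold has a middle-time difference of at least 1 log2 either way.

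The cells were peritoneal macrophages of mice injected with thioglycollate, a broth that recruits monocyte-derived macrophages to the peritoneum. They were taken from wild-type mice, from mice lacking the kinase IRAK2 (IRAK-2-/-) and from mice lacking IRAK1 as well as IRAK2 (the double knockout), and were given MALP-2 at 100 ng/ml for 0, 2, 4 or 8 h. Strain, age, sex and the number of mice behind an array are not given in the sources used here. Each of the groups had 1 array, so a difference between arrays has no replicate error. "Knockout cells" below are those of the IRAK2 knockout. The IRAK2-knockout arrays at 2, 4 and 8 h are separate arrays on which the same pattern was looked for, and the double-knockout arrays at the same times are given beside them. The order of processing is not labelled, and whether the arrays of a time point were handled together was not tested.

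MALP-2 is a mycoplasma lipopeptide sensed by Toll-like receptor 2 together with Toll-like receptor 6. The adaptor MyD88 then gathers the IRAK kinases, which act through TRAF6 on NF-kB and the MAP kinases. Messenger RNAs of such a response come in waves: immediate-early genes go up and down fast, genes with long-lived messengers build up slowly, and genes of resting macrophages are shut down and may return. A transcript highest or lowest at the middle time belongs to a course that turns between the early and the late sample.

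Of 11 macrophage markers, Csf1r, Lyz2 and Cd68 read between 11.59 and 13.20 on the wild-type arrays, and Adgre1 and Lgals3 between 10.18 and 12.83. Itgam, Timd4 and Gata6 read between 3.76 and 6.41. Mertk and Fcgr1 read 8.58 and 8.17 at 0 h and 6.04 and 5.88 at 4 h. The median of the 11 in wild type was 8.58, 6.86, 6.04 and 6.97 at 0, 2, 4 and 8 h. Cd163, a haemoglobin scavenger receptor, was under the floor on all 6 wild-type and IRAK2-knockout arrays at 2, 4 and 8 h. At 0, 2, 4 and 8 h, the Irak2 level was 6.21, 6.69, 6.29 and 5.77 in wild type and 5.63, 5.51, 4.71 and 4.65 in knockout cells, and its middle-time difference in wild type was 0.06. Among the 11 arrays other than the double knockout at 0 h, every pair correlated at 0.954 or above over probesets. The middle-time difference of 18 spike-in probesets, which do not come from the cells, ran from -0.0535 to 0.1102 in wild type. For the 5′ minus 3′ value of actin, a reading of RNA quality, it was 0.17 in wild type and 0.34 in knockout cells. The part of RNA quality in the middle-time differences was not tested. Neutrophil markers Elane, Mpo, Ngp and Cxcr2, B cell markers Pax5, Cr2 and Vpreb3, and 6 of 10 T and NK cell markers stayed under the floor on those 6 arrays. The median level of the 12 neutrophil markers was 3.88, 4.60 and 4.57 at 2, 4 and 8 h in wild type, and in the limma fit described below none of the 7 neutrophil, 5 B cell, 4 eosinophil and mast cell, 4 dendritic cell and 7 mesothelial and stromal markers that could be tested was called, while 3 were higher and 1 lower at an unadjusted p under 0.05. Over all 10748 genes tested, 1.07% were called higher and 1.65% lower, and 1073 were higher and 956 lower at an unadjusted p under 0.05. Of the T and NK cell markers 1 was tested and of the erythroid markers 0, so the fit says nothing of those cells. In whole-culture RNA, fewer cells of a type and less RNA per cell cannot be told apart.

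In wild type, 25 genes were at least 2-fold higher at 4 h than the mean of 2 h and 8 h (0.207% of measured genes) and 27 were at least 2-fold lower (0.223%). The median middle-time difference over all 12098 genes was 0.0167 and its SD over genes was 0.2507. At 1.5-fold the counts were 201 higher (1.66%) and 202 lower (1.67%). By the stricter rule that 4 h stands at least 0.5 log2 beyond both neighbours, 84 genes peaked and 84 dipped (0.694% each). The genes next to the 2-fold line were St3gal3 at 1.006 and Atf3 at 0.982 on the high side, and Mpp7 at -1.019 and Il15 at -0.976 on the low side.

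The IRAK2 knockout had 13 genes past 2-fold higher (0.107%) and 30 lower (0.248%). All 25 wild-type high genes had a difference above 0 there (54.8% of all genes did), and all 27 low genes had one below 0 (45.2%). At 1.5-fold the knockout counts were 131 higher (1.08%) and 235 lower (1.94%). The 25 and 27 genes were chosen on the wild-type values, so the size in the knockout is the separate reading. Genes chosen this way tend to read smaller on any other arrays, and an effect of IRAK2 loss on the size was not tested. The high genes were smaller there, with a median of 0.83 (from 0.12 to 1.88) against 1.18 in wild type, and 5 of them were past 2-fold in both, which is 20% of the wild-type and 38.5% of the knockout genes. The low genes were close to wild type, with a median of -1.06 (from -2.88 to -0.51) against -1.11, and 14 were past 2-fold in both (51.9% and 46.7%). Over all 12098 genes the differences in wild type and IRAK2 knockout correlated at r = 0.59 (Spearman's rank correlation 0.48), and those in wild type and double knockout at r = 0.15 (rank correlation 0.11). These correlations describe genes on a few arrays, and genes are not independent replicates.

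**Figure D1:**
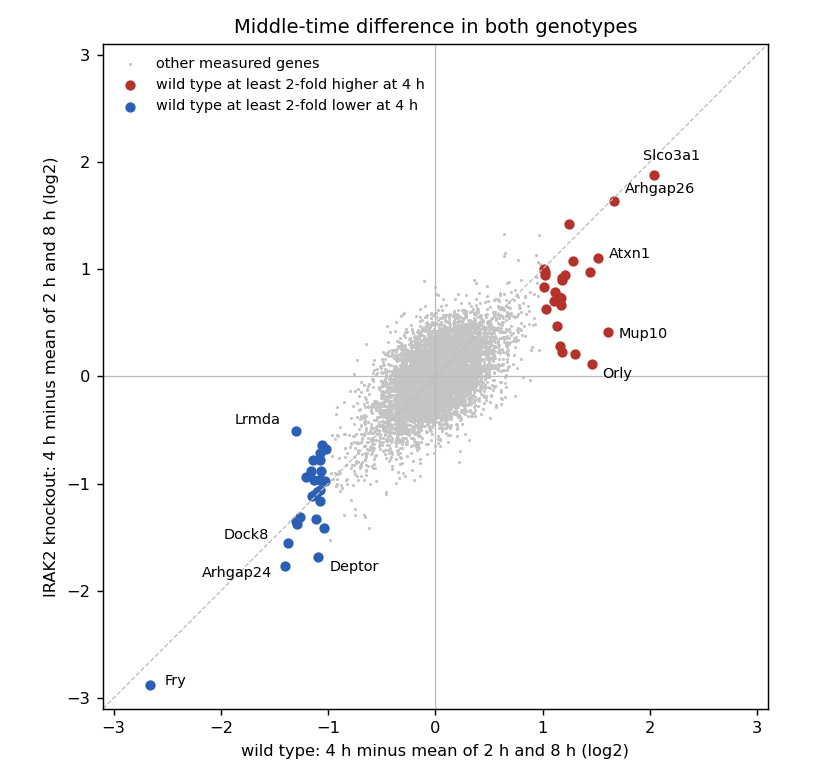
Middle-time difference (log2) of each of 12098 measured genes in wild type (horizontal axis) and IRAK2 knockout (vertical axis), 1 point per gene, with the 52 wild-type genes past 2-fold in colour. All 25 high genes lie above 0 on the knockout axis and all 27 low genes lie below 0, and Mup10 and Orly are examples of wild-type peaks that were small in the knockout.

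A shared middle-time difference was estimated with limma from the 6 arrays of both genotypes at 2, 4 and 8 h, where the genotypes stand in for replicates. Its p-values set the size of a difference beside how alike the whole course over 2, 4 and 8 h was in the genotypes. They say nothing of the variation among mice. The change from 2 h to 8 h is part of that course, so unlike changes there raise the SE. A gene with alike middle-time differences can thus be missed, as was St3gal3, whose values in the genotypes were 0.01 apart. Of 10748 genes tested, 115 were called higher at 4 h (1.07%) and 177 lower (1.65%) at a Benjamini-Hochberg adjusted p under 0.05. Of the wild-type genes past 2-fold, 18 of 25 high and 26 of 27 low genes were called, but the wild-type arrays that chose them are in the fit, so these counts are no independent evidence. When the 3 double-knockout arrays were added as a genotype of their own, the calls shrank to 0 higher and 3 lower, namely Dock8 at -1.31 (adjusted p = 0.0314), Fry at -2.37 (adjusted p = 0.0334) and Zdhhc14 at -1.34 (adjusted p = 0.0314). In the 9-array fit 695 genes were higher and 625 lower at an unadjusted p under 0.05. With the mean over all probesets of a gene, the calls of Cep128, Dock8, Fdps, Gpr31b, Hsd17b7, Lrmda, Mgll, Nav2, Nsdhl, Rps6ka5, Syne2 and Tbc1d5 ended, and without probesets of the _x_at and _s_at kinds those of Cep128, Hsd17b7, Iars and Syne2 ended. In the paragraphs that follow, "rose" and "fell" are used of genes called in the 6-array fit, and mean higher or lower at 4 h than the mean of 2 h and 8 h.

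Enzymes that make cholesterol peaked together at 4 h. Cholesterol is built from acetyl-CoA through mevalonate, squalene and lanosterol, and most enzymes of the chain are controlled together by the sterol-sensing transcription factor SREBP2. Of 17 enzymes read from a list of 20, 15 were highest at 4 h among the stimulated wild-type arrays, where 27% of all measured genes were, and 10 were at least 1.5-fold up, where 1.66% were. In the limma fit 11 of the 17 were called higher and 0 lower, against 1.07% and 1.65% of all genes tested. The median middle-time difference was 0.77 in wild type and 0.63 in knockout cells. Against 0 h of the same genotype, the median of the 17 enzymes was 0.05, 0.85 and 0.18 at 2, 4 and 8 h in wild type and 0.25, 0.98 and 0.38 in knockout cells. These are medians over the list, and single enzymes differed. In wild type most of the 17 lay nearer to their 0 h level at 8 h than at 2 h. These were Cyp51, Sqle, Idi1, Hmgcs1, Mvk, Nsdhl, Sc5d and Tm7sf2, and by a small margin Fdft1 and Dhcr7.

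Of the early enzymes, Mvd, which makes isopentenyl pyrophosphate, read 6.73, 8.24 and 7.71 at 2, 4 and 8 h in wild type and 7.19, 8.63 and 8.18 in knockout cells. It rose by 0.99 (SE 0.10, limma adjusted p = 0.00603). Pmvk, the phosphomevalonate kinase before it, read 7.13, 7.93 and 7.35 and then 7.38, 8.10 and 7.43. Its middle-time difference was 0.69 in wild type and in knockout cells, and -0.30 in the double knockout. Fdps, which makes farnesyl pyrophosphate, read 5.03, 6.02 and 5.33 in wild type and 5.32, 6.26 and 5.71 in knockout cells. In these 3 enzymes the 4 h array was the highest of the stimulated arrays in both genotypes. Fdft1, the squalene synthase, read 9.13, 9.88 and 9.11 in wild type and 9.28, 10.07 and 9.36 in knockout cells. Sqle, the epoxidase that oxidises squalene and is a rate-limiting step, read 7.78, 8.54 and 7.61 in wild type and 8.05, 8.57 and 7.93 in knockout cells. In both enzymes and both genotypes 8 h stood near 2 h again.

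Lss, which closes squalene epoxide into lanosterol, had the highest wild-type middle-time difference of the chain, 1.17. It read 6.54, 8.21 and 7.53 at 2, 4 and 8 h in wild type. In the knockout Lss read 7.12, 8.29 and 8.14, so that 4 h and 8 h lay close together. The shared difference of Lss was 0.92 (SE 0.13, limma adjusted p = 0.0145). Cyp51, the lanosterol demethylase, read 9.04, 9.65 and 8.34 in wild type and 9.19, 9.68 and 8.68 in knockout cells. Msmo1, the sterol C4-methyl oxidase, read 8.48, 9.26 and 8.40 and then 8.81, 9.59 and 9.02. Nsdhl, the dehydrogenase of the same C4 demethylation, read 6.15, 7.18 and 6.62 and then 6.30, 7.52 and 7.45. Cyp51, Msmo1 and Nsdhl were all called higher, with shared differences of 0.85, 0.75 and 0.72. Hsd17b7, the reductase that completes that demethylation, read 8.03, 9.56 and 9.03 in wild type and was called too, but its other measured probesets read 0.27 and -0.01, so its peak rests on 1 probeset.

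The other 6 enzymes were not called. Hmgcs1, which makes HMG-CoA at the entry to the pathway, read 12.19, 12.50 and 11.85 in wild type and 12.31, 12.45 and 11.96 in knockout cells (shared difference 0.40, limma adjusted p = 0.0853). Mvk, the mevalonate kinase, and Idi1, the isopentenyl pyrophosphate isomerase, had shared differences of 0.45 and 0.57 with limma adjusted p-values of 0.0536 and 0.0563. Ebp, Dhcr7 and Tm7sf2, which act after lanosterol, had shared differences of 0.03, -0.12 and 0.09. Sc5d, another late enzyme, rose by 0.50. Calls thus ran along the chain from Pmvk to Sc5d, with Idi1, Tm7sf2 and Ebp uncalled in between.

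**Figure D2:**
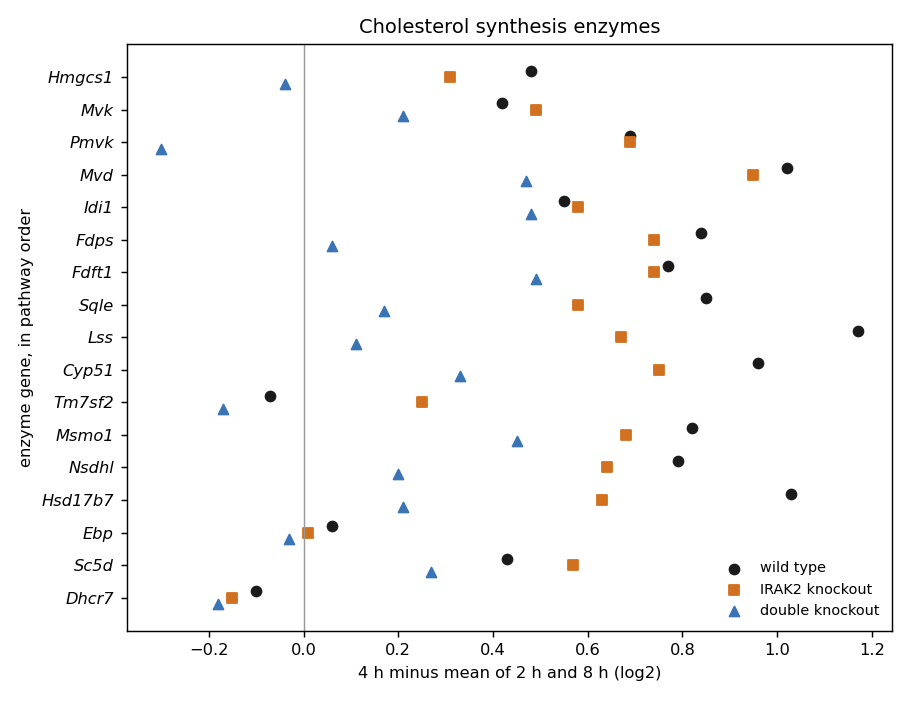
Middle-time difference (log2) of the 17 cholesterol synthesis enzymes, in the order of the pathway from top to bottom, with 1 point for each genotype. Wild type and IRAK2 knockout lie above 0.4 for most enzymes (medians 0.77 and 0.63), Ebp and Dhcr7 lie near 0, and the double knockout lies lower (median 0.20).

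Promoter sequences are shown for 4 of the enzymes to let the matches to the motifs below be seen in place. Msmo1, Nsdhl and Hsd17b7 were called and Hmgcs1 was not. RefSeq windows from 250 bases before to 50 bases after the annotated start were found for 14 of the 17 enzymes (mouse build GRCm38.p6). They were searched on both strands for TCACNCCAC, a form of the sterol regulatory element bound by SREBP, and for CCAAT, the box bound by NF-Y (the motifs can share only an end base). CCAAT was in the windows of 14 of 14 enzymes (100%), against 42.3% of 9810 measured genes with a window and 41.1% of all 27025 genes with one. Of the wild-type high genes with a window, 8 of 18 held it (44.4%), as did 8 of 18 low genes (44.4%). TCACNCCAC was in 1 of 14 enzymes (7.14%), Hmgcs1, against 1.39% of measured genes. A match describes letters and is not a bound site, and many working sterol elements are spelled otherwise. The stretches, which end at the annotated transcription start, are given 5′ to 3′ on the strand of the gene with the matches in capitals (ATTGG is CCAAT read from the other strand). They are Hmgcs1 at chr13:119690201-119690350 on the plus strand, Hsd17b7 at chr1:169969206-169969305 on the minus strand, Nsdhl at chrX:72918391-72918520 on the plus strand and Msmo1 at chr8:64733579-64733688 on the minus strand.
Hmgcs1: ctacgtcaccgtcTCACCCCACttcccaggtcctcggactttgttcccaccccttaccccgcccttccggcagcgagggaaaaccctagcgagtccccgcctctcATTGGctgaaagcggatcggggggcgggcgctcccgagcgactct
Hsd17b7: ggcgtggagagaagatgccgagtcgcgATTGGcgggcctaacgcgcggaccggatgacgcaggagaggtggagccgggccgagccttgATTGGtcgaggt
Nsdhl: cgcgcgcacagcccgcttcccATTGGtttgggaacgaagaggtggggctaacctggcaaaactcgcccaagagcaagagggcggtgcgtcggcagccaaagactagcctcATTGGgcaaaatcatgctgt
Msmo1: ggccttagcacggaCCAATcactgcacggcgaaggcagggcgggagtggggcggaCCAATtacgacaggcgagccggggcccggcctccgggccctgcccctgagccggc
Hmgcs1 holds 1 match to each motif, and the other 3 stretches hold a pair of CCAAT boxes each.

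Lipid genes outside the chain were mixed. Stard4, a carrier that moves cholesterol between membranes, read 6.50, 6.23, 7.50 and 6.54 at 0, 2, 4 and 8 h in wild type and 6.75, 6.79, 7.49 and 6.61 in knockout cells. Both courses stood at 4 h well above every other time. Stard4 was called higher, the 1 call among 12 genes of cholesterol uptake, transport and SREBP control (1.07% of all genes tested were called higher). The median of these 12 genes was -0.02 in wild type. Srebf2, the gene of SREBP2 itself, read 7.99, 8.37 and 7.88 at 2, 4 and 8 h in wild type and 8.06, 8.12 and 8.01 in knockout cells. Aacs, which turns the ketone body acetoacetate into acetoacetyl-CoA for lipid synthesis, read 3.98, 4.15, 5.39 and 4.28 in wild type and 4.18, 4.55, 5.35 and 4.70 in knockout cells (rise of 0.95, SE 0.12, limma adjusted p = 0.0111). Its 4 h value was the highest of the course in both. Of 17 fatty acid synthesis genes, 4 were called higher and 0 lower, against 1.07% and 1.65% of all genes tested. They were the fatty acid synthase Fasn (0.59), the desaturase Scd2 (0.55), the elongase Elovl6 (0.71) and the acyl-CoA ligase Acsl3 (0.79). Elovl6, Scd2 and Acsl3 were low at 2 h rather than high at 4 h. In wild type Elovl6 read 5.55, 4.44, 5.93 and 6.13 at 0, 2, 4 and 8 h.

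Among 15 wild-type genes past 2-fold, 4 h stood at least 0.5 log2 above both neighbours, a class set after the values were seen, as are the other shapes below. Arhgap26, a GTPase-activating protein for small GTPases of the cytoskeleton, read 6.14, 7.0, 8.00 and 5.67 at 0, 2, 4 and 8 h in wild type and 6.30, 6.82, 7.61 and 5.11 in knockout cells. It rose by 1.65 (SE 0.11, limma adjusted p = 0.00219), and its other measured probesets read 1.95 and 0.18 in wild type. The double knockout read 6.35, 5.60 and 4.97 at 2, 4 and 8 h, without a peak. Atxn1, the ataxin 1 gene of a transcriptional repressor, read 7.33, 6.65, 8.27 and 6.85 in wild type and 7.21, 6.60, 7.55 and 6.29 in knockout cells. It was below its 0 h level at 2 h, above it at 4 h and below it again at 8 h, and a second probeset read 1.45. Chsy3, a chondroitin synthase, read 3.42, 3.63, 5.06 and 4.20 in wild type and 3.40, 3.57, 4.53 and 4.01 in knockout cells. Cd300lb, an activating receptor of myeloid cells, read 9.96, 6.97, 8.69 and 8.16 in wild type, so its 4 h level was the highest of the stimulated times but stayed under 0 h. Syne2, a nuclear envelope protein, rose by 1.18 on a probeset that carries a family suffix, while another measured probeset read -0.25 in wild type.

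Some wild-type peaks were small in the IRAK2 knockout. Mup10, a major urinary protein gene, read 5.50, 4.31, 5.98 and 4.43 at 0, 2, 4 and 8 h in wild type and 5.23, 5.18, 4.86 and 3.72 in knockout cells. Orly, a non-coding RNA gene, read 6.54, 5.45, 7.07 and 5.78 in wild type and 6.89, 6.85, 6.09 and 5.09 in knockout cells. In these genes 4 h was the highest wild-type array and lay below 2 h in the knockout. 4933438K21Rik, an unnamed gene model, read 4.86, 6.32 and 5.18 at 2, 4 and 8 h in wild type and 5.95, 5.56 and 4.74 in knockout cells. Hecw1, a ubiquitin ligase, had differences of 1.18 and 0.23, and Car3, a carbonic anhydrase, of 1.16 and 0.28. None of these 5 genes was called in limma, whose adjusted p-values ran from 0.099 for Car3 to 0.35 for Orly. Other measured probesets in wild type read 0.81, 0.08 and -0.01 for Car3 and 1.22 and 0.14 for Orly. Each wild-type value rests on 1 array per time. For Mup10, Orly and 4933438K21Rik the 0 h level lay nearer to 4 h than 2 h and 8 h did, so low levels at 2 h and 8 h enter the difference.

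**Figure D3:**
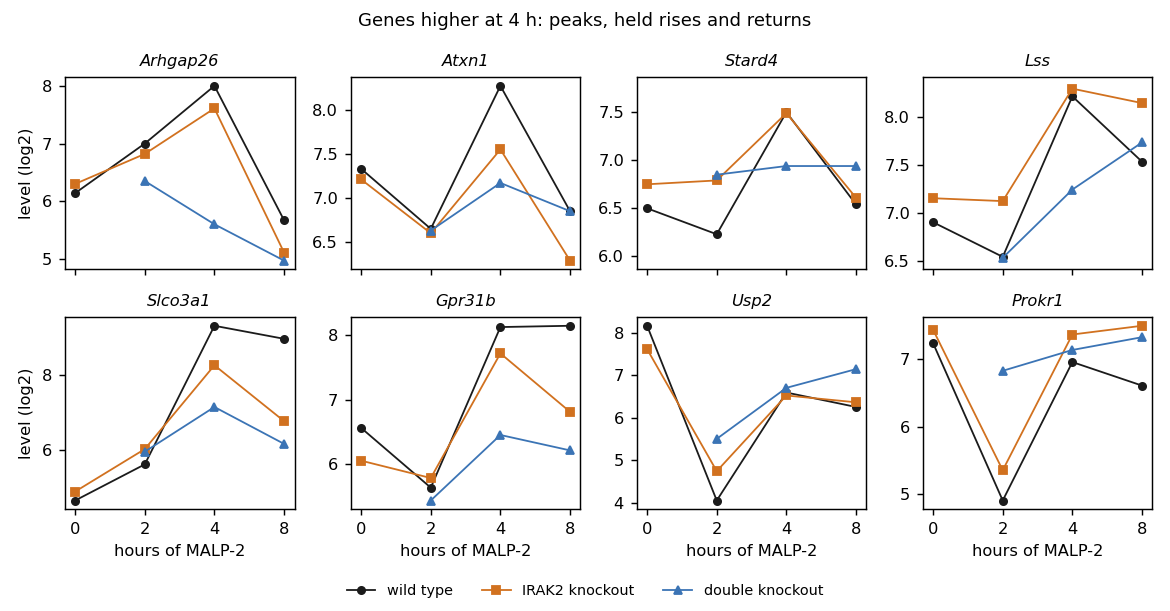
Log2 levels over 0, 2, 4 and 8 h of MALP-2 (equal steps on the axis) of genes past 2-fold higher at the middle time, 1 point per array, with lines joining the arrays of a genotype. Arhgap26 and Stard4 peak at 4 h in wild type and IRAK2 knockout, Usp2 and Prokr1 are lowest at 2 h in wild type and IRAK2 knockout, and Slco3a1 and Gpr31b are still high at 8 h in wild type.

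In 7 high genes without such a peak, 2 h was at least 2-fold under 0 h and 4 h was higher again. Of the 15 peak genes, 3 (Mup10, Orly and Cd300lb) were also at least 2-fold under 0 h at 2 h. Usp2, a deubiquitinase, read 8.16, 4.05, 6.59 and 6.25 at 0, 2, 4 and 8 h in wild type and 7.61, 4.74, 6.52 and 6.36 in knockout cells. Arhgap25, a GTPase-activating protein for Rac found in phagocytes, read 7.38, 3.34, 5.42 and 5.15 in wild type and 7.73, 3.85, 5.74 and 5.79 in knockout cells. Both were lowest at 2 h in both genotypes and stood between their 2 h and 0 h levels at 4 h. Prokr1, a prokineticin receptor, read 7.24, 4.90, 6.96 and 6.61 in wild type, and Tifab, an inhibitor of TIFA and TRAF6 signalling, read 7.32, 4.67, 6.73 and 6.41. Tmcc3, Fgd4 (an exchange factor for Cdc42) and the homeobox factor Hhex had the same course, with 2 h levels of 6.52, 7.59 and 5.67 and 4 h levels of 8.61, 9.53 and 7.65. All 7 were called higher in limma (1.07% of all genes tested were), but the wild-type arrays that chose them are in the fit. In the knockout their differences had a median of 0.92 with none past 2-fold. In the double knockout the median was 0.10.

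In 3 genes a high level first seen at 4 h was held to 8 h in wild type. Slco3a1, an organic anion transporter, had the highest positive difference, 2.04, and read 4.64, 5.61, 9.33 and 8.98 in wild type. In the IRAK2 knockout it read 4.88, 6.02, 8.27 and 6.77, so 8 h was lower than 4 h there. Its shared difference was 1.96 (SE 0.41) and just missed the threshold (limma adjusted p = 0.0505), and 2 other probesets read 1.20 and 1.68 in wild type. Gpr31b, a G protein-coupled receptor gene, read 6.56, 5.63, 8.13 and 8.15 in wild type and 6.05, 5.78, 7.72 and 6.81 in knockout cells, and rose by 1.34 (SE 0.25, limma adjusted p = 0.0331). St3gal3, a sialyltransferase, read 6.01, 6.21, 8.32 and 8.42 in wild type and 5.56, 6.22, 7.45 and 6.70 in knockout cells. St3gal3 was not called (shared difference 1.0, limma adjusted p = 0.104). In all 3 genes the wild-type level at 8 h stayed near that of 4 h, and in the knockout it was lower than at 4 h.

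The rule on the shared fit added genes just under 2-fold in wild type. Plet1, a surface protein gene, read 3.49, 8.81, 8.36 and 5.98 in wild type and 3.67, 9.02, 9.04 and 6.43 in knockout cells, and rose by 1.14 (SE 0.12, limma adjusted p = 0.00603). Its level was high at 2 h and 4 h and lower at 8 h, so it is no peak at 4 h. Sntb1, a syntrophin of the dystrophin complex, read 8.52, 10.13 and 9.86 at 2, 4 and 8 h in wild type and 8.33, 9.82 and 9.05 in knockout cells.

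Dips at 4 h were the most frequent low shape. In 16 of the 27 low genes, 4 h lay at least 0.5 log2 below both 2 h and 8 h, all 16 were at least 2-fold under 0 h at 4 h, and all 16 were still under 0 h at 8 h. Fry, the Furry scaffold protein of cell shape, had the lowest value of all genes at -2.66. It read 10.92, 10.59, 6.95 and 8.63 at 0, 2, 4 and 8 h in wild type and 10.53, 10.17, 6.63 and 8.86 in knockout cells. The level at 2 h was near that of 0 h, then dropped by 3.64 log2 units in wild type and dropped by 3.54 in the knockout, and came partly back by 8 h. The shared difference was -2.77 (SE 0.14, limma adjusted p = 5.44e-04), but another measured Fry probeset, near the floor, read -0.25 in wild type. Dock8, an exchange factor for Cdc42 that leukocytes need to migrate, read 7.99, 7.31, 6.0 and 7.44 in wild type and 8.02, 7.40, 5.76 and 7.21 in knockout cells (shared difference -1.46, SE 0.11), with another probeset at -0.17. Arhgap24, a GTPase-activating protein for Rac, read 7.05, 6.14, 4.39 and 5.44 in wild type and 6.98, 6.41, 4.22 and 5.55 in knockout cells. Dock8 stood near its 2 h level again at 8 h in both genotypes.

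Next come 3 dips picked by hand after their values were seen. Rb1, the retinoblastoma protein that holds back entry into S phase, read 9.09, 8.25, 7.06 and 8.13 in wild type and 8.92, 8.34, 7.45 and 8.50 in knockout cells. Ccng2, the growth-arrest cyclin G2, read 6.59, 6.74, 5.02 and 5.62 in wild type and 6.50, 7.02, 5.48 and 5.71 in knockout cells. Deptor, an inhibitor of mTOR, read 8.79, 7.85, 6.34 and 7.0 in wild type and 8.56, 7.73, 5.87 and 7.36 in knockout cells. All 3 fell, by 1.05, 1.02 and 1.38 on the log2 scale, and the other measured Deptor probesets read -1.14, -0.58 and -0.45 in wild type. In the 26 cell cycle genes tested 1 was called higher (cyclin D2, Ccnd2, 0.68) and 1 lower (the proliferation marker Mki67, -0.93). Of all genes tested 1.07% were called higher and 1.65% lower. The median shared difference of the 26 was 0.00.

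The other dips had varied roles. Mgll, which breaks down monoacylglycerols, read 7.91, 7.0, 5.79 and 6.74 in wild type and 7.92, 7.28, 6.31 and 7.45 in knockout cells, and fell by 1.07. Foxred2, a flavoprotein of the endoplasmic reticulum, read 7.89, 6.31, 5.34 and 6.63 in wild type and 7.81, 6.32, 5.57 and 7.04 in knockout cells. Camk1d, a calmodulin-dependent kinase, fell by 1.22, and its level at 8 h was 6.03 against 5.15 at 4 h in wild type. Arhgap18, another GTPase-activating protein, fell by 1.09. Cep128, of the centriole, Spaca9, Tmem71 and the polarity scaffold Mpp7 were called lower as well, with wild-type differences of -1.14, -1.06, -1.08 and -1.02. The Cep128 value rests on 1 probeset of the _x_at kind, and the call ended without such probesets (-0.08, adjusted p = 0.745, with a range over the alternatives from 0.00386 to 0.745). Lrmda had the widest gap between genotypes in this class, -1.30 in wild type and -0.51 in knockout cells, and was still called (shared difference -0.90). Tbc1d5, an inhibitor of Rab7, fell by 1.13 on its chosen probeset, while others read 0.03 and 0.20 in wild type. Selenbp1, named because it dipped below both neighbours by 0.90 or more in wild type, fell by 0.76. Where a 4 h level lay near 3.83, as for Spaca9 at 3.70, the size of the dip is a lower limit.

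**Figure D4:**
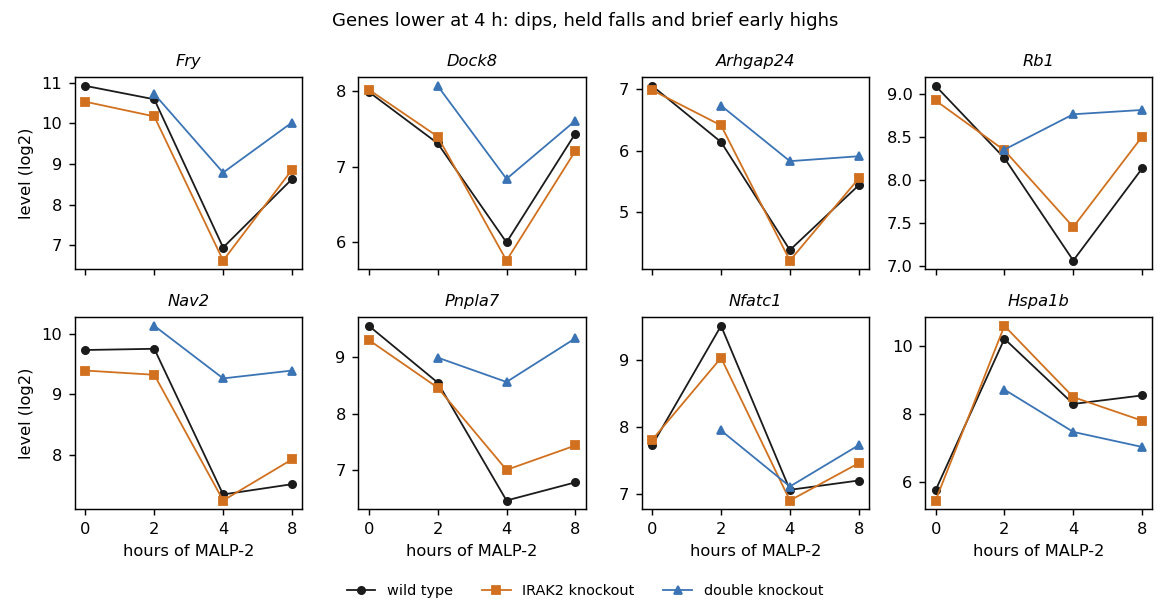
Log2 levels over 0, 2, 4 and 8 h of MALP-2 (equal steps on the axis) of genes past 2-fold lower at the middle time, 1 point per array, with lines joining the arrays of a genotype. Fry and Dock8 are lowest at 4 h in all 3 genotypes. Rb1 dips in wild type and IRAK2 knockout, with the double-knockout array at 4 h between its neighbours. Nfatc1 is high at 2 h alone in wild type and IRAK2 knockout, and reads 7.95, 7.11 and 7.73 at 2, 4 and 8 h in the double knockout.

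In 5 low genes the low level of 4 h was held at 8 h in wild type. Nav2, a cytoskeletal navigator protein, read 9.73, 9.75, 7.34 and 7.51 in wild type and 9.39, 9.32, 7.24 and 7.92 in knockout cells, although its other probesets read between -0.06 and -0.30. Zdhhc14, a palmitoyltransferase, read 7.75, 6.58, 4.51 and 4.96 in wild type and 7.61, 6.99, 4.73 and 5.09 in knockout cells. Zdhhc14 kept its value in the double knockout, at -1.45. Pnpla7, a lysophospholipase, read 9.55, 8.55, 6.47 and 6.79 in wild type, and Calcoco1 read 8.00, 7.30, 5.62 and 6.09. Calcoco1 instead dipped in knockout cells, with 7.88, 7.09, 6.0 and 6.86, and Nav2 and Rps6ka5 stood 0.68 and 0.57 higher at 8 h than at 4 h there. Rps6ka5, the kinase MSK1 that acts under the MAP kinases on chromatin, read 5.37, 5.97, 3.99 and 4.23 in wild type and 5.16, 6.25, 4.16 and 4.72 in knockout cells. The double knockout read 5.84, 5.79 and 5.17 for Rps6ka5 at 2, 4 and 8 h, without the drop at 4 h. All 5 were called lower (1.65% of all genes tested were), but the wild-type arrays that chose them are in the fit.

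In 6 low genes the value came from a level that was high at 2 h and lower by 4 h. Nfatc1, a calcium-regulated transcription factor, read 7.73, 9.52, 7.06 and 7.20 in wild type and 7.81, 9.04, 6.90 and 7.46 in knockout cells. Rnd1, an atypical small GTPase that relaxes actin, read 3.42, 6.79, 4.57 and 4.50 in wild type, and Cdk5r1, the p35 activator of Cdk5, read 4.73, 7.92, 5.31 and 4.85. Atp2b4, a calcium pump of the plasma membrane, read 3.52, 6.56, 3.83 and 3.26. These 4 genes were all highest at 2 h and called lower at 4 h (1.65% of all genes tested were called lower). The wild-type arrays that chose them are in that fit. Cdk5r1 was highest at 2 h in the double knockout too (7.02, 4.67 and 4.96 at 2, 4 and 8 h). Hspa1a and Hspa1b are nearly identical genes of the inducible chaperone Hsp70, and their probes cannot be fully told apart. At 0, 2, 4 and 8 h in wild type, Hspa1a read 3.51, 5.92, 4.16 and 4.44. Hspa1b read 5.77, 10.21, 8.30 and 8.55. The high level was not brief in every gene, since at 4 h in wild type Hspa1b stood 2.53 and Rnd1 1.15 above 0 h. Hspa1a was called (-1.0) and Hspa1b was not (-0.89, limma adjusted p = 0.0641). Il15, a cytokine that keeps NK and memory T cells alive, missed 2-fold in wild type but fell by 1.25 in the shared fit, with 6.44, 4.52 and 4.55 in wild type and 6.54, 4.33 and 5.18 in knockout cells.

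Of 32 gene lists with 502 measured members, 3 had a wild-type median at least 0.2 from that of all genes, and they were the cholesterol enzymes, ribosome biogenesis, and amino acid transport with aminoacyl-tRNA synthetases. The other 29 medians ran from -0.13 to 0.18. Of 29 ribosome biogenesis genes, 26 had a difference above 0 in wild type (53.5% of all genes did) and 21 were highest at 4 h (27% of all genes). Their median was 0.28 in wild type and 0.24 in knockout cells. Of the 29, 3 were called higher and 0 lower, against 1.07% and 1.65% of all genes tested. They were Dkc1, the pseudouridine synthase of ribosomal RNA (0.64), Nolc1, a nucleolar assembly protein (0.48), and Rrp12, a factor of subunit export (0.53). Dkc1 read 8.82, 9.63 and 9.28 in wild type and 8.83, 9.72 and 9.20 in knockout cells. Polr1a, the largest subunit of RNA polymerase I, was the only member past 1.5-fold in wild type (0.63), but it read 0.06 in the knockout and was not called.

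The amino acid list had a median of 0.23 in wild type and 0.22 in knockout cells. Of its 19 members, 12 were highest at 4 h in wild type (27% of all genes). Of the 19, 3 were called higher and 0 lower, against 1.07% and 1.65% of all genes tested. Slc7a1, the transporter of arginine and lysine, read 10.81, 11.66 and 10.92 in wild type and 10.83, 11.23 and 10.76 in knockout cells (rise of 0.61, SE 0.12, limma adjusted p = 0.0382). Iars, the isoleucyl-tRNA synthetase, rose by 0.59, and Slc7a5, the transporter of large neutral amino acids, rose by 0.52. Among 23 genes of the unfolded protein response and ATF4, 2 were called higher (1.07% of all genes tested) and 0 lower (1.65%). Both are of amino acid synthesis: Asns, the asparagine synthetase (0.83), and Phgdh, the first enzyme of serine synthesis (0.77). Asns read 7.57, 8.36, 9.18 and 8.24 in wild type and 7.98, 8.98, 9.63 and 8.70 in knockout cells, highest at 4 h in both.

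**Figure D5:**
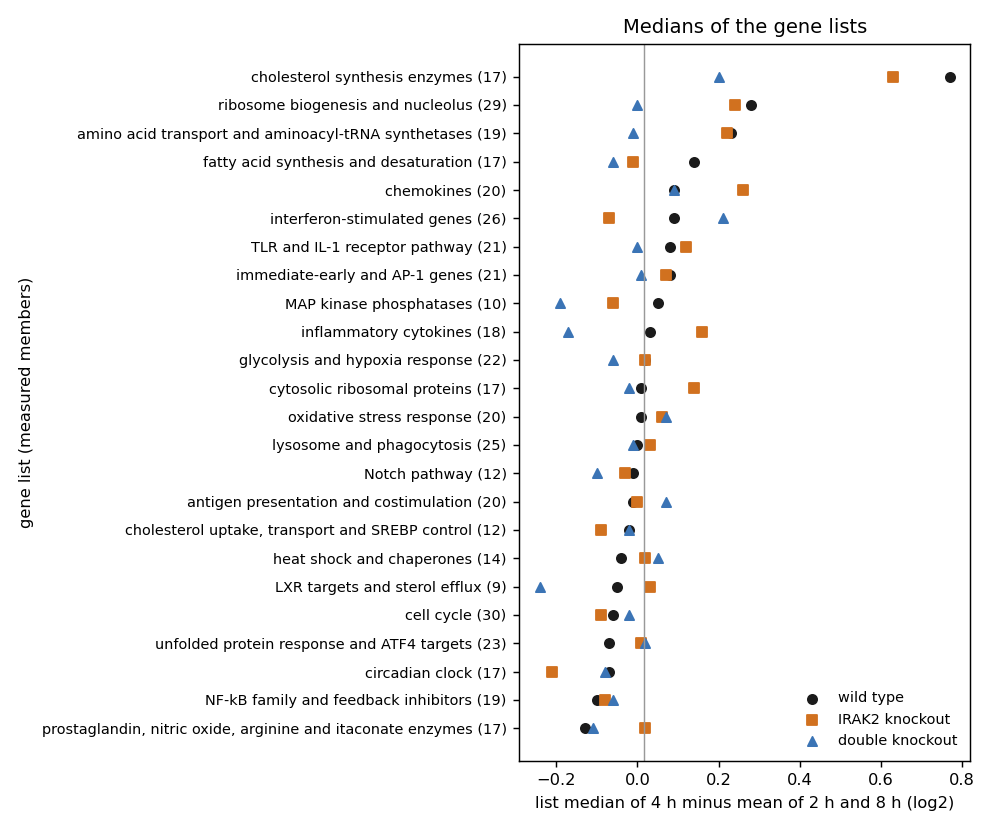
Median middle-time difference (log2) of each of the 24 pathway gene lists in wild type, IRAK2 knockout and double knockout, 1 point per list and genotype. The cholesterol enzymes stand at 0.77 in wild type, ribosome biogenesis at 0.28, the amino acid list at 0.23, and the other lists drawn between -0.13 and 0.14. The grey line is the median of all measured genes in wild type.

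The inflammatory lists are set beside all genes tested, of which limma called 1.07% higher and 1.65% lower. Of 20 measured chemokines, 9 were highest at 4 h in wild type (27% of all genes) and 13 in the IRAK2 knockout (30.2% of all genes), with list medians of 0.09 and 0.26. Of 19 chemokines 0 were called either way in limma, with 2 higher and 0 lower at an unadjusted p under 0.05, of 17 inflammatory cytokines 0 higher and 1 lower (Il15), and of 19 NF-kB genes 0 higher and 1 lower (the nuclear inhibitor-like protein Bcl3, -0.91). At an unadjusted p under 0.05 the cytokines had 4 higher and 3 lower, the NF-kB genes 0 and 3, and all 10748 genes tested 1073 and 956. In the shared fit Il1b, Il6 and Cxcl1 had SEs of 0.59, 0.72 and 0.48, so only large differences of such genes could be called. Tnf read 10.99, 11.39 and 11.35 at 2, 4 and 8 h in wild type and 11.02, 10.71 and 10.08 in knockout cells (middle-time differences of 0.22 and 0.16). Of 21 immediate-early and AP-1 genes, 3 were called higher and 2 lower. Fos read 8.41, 6.22, 7.66 and 7.22 at 0, 2, 4 and 8 h in wild type and Atf3 read 10.20, 8.19, 9.73 and 9.31, both being lowest at 2 h and high before MALP-2. Batf rose by 0.62, and Egr3 and Nr4a3, immediate-early factors high at 2 h, fell by 0.58 and 0.77. Nr4a3 read 8.73, 6.58 and 5.35 in wild type and 8.09, 5.23 and 4.53 in knockout cells. It was 1 of the 2 genes past 2-fold in the knockout whose wild-type value was under 0.5 in size; the other was Arhgap19 (-0.46 and -1.10). Of the 10 macrophage markers tested, 1 was called: Mertk, a receptor for the uptake of dying cells, fell by 0.97, with 6.70, 6.04 and 6.97 in wild type and 6.43, 5.39 and 6.66 in knockout cells. Nceh1, a cholesterol ester hydrolase of macrophages, fell by 0.89.

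The double knockout had 22 genes past 2-fold higher at the middle time (0.182%) and 45 lower (0.372%). Of the wild-type genes past 2-fold, 2 of 25 high and 6 of 27 low genes were past 2-fold there too, with medians of 0.18 and -0.42. The cholesterol enzymes had a median of 0.20, with 5 of 17 highest at 4 h (28.7% of all genes) and 0 past 1.5-fold either way (2.46% of all genes higher and 3.27% lower). When the double-knockout difference was tested against the shared one in limma over 9 arrays, a test added after the data were seen, 0 genes were called either way, with 697 higher and 971 lower at an unadjusted p under 0.05 and 2 residual degrees of freedom. Among the named genes, those closest to the threshold were Arhgap26, lower in the double knockout by 1.72 (SE 0.20, adjusted p = 0.0603), and Rps6ka5, higher by 1.5 (adjusted p = 0.0642). For the cholesterol enzymes 0 of 17 differed after adjustment, and 8 of 17 were lower at an unadjusted p under 0.05. The stimulated double-knockout arrays had 5′ minus 3′ actin differences of -4.25, -4.68 and -3.87, against -3.72 to -3.24 on the 6 other stimulated arrays. For Gapdh they were -5.29, -5.90 and -4.36, against -3.84 to -3.42, and the part of RNA quality in the smaller differences was not tested.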

How the data were processed

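The 12 arrays measured total RNA extracted with Trizol and given biotin labels by the NuGEN Ovation system, per the labels' protocols. Values are on a log2 scale in the table as deposited, with 45101 probesets in rows and 1 column per array. They were made with RMA per the submitters' processing notes, which corrects background, makes the distributions of the arrays equal and summarizes probes, so values near the floor are compressed. No RMA version is stated in those notes. With 1 array per group, the number of arrays limits the precision.

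Of the probesets, 34958 carry 1 gene symbol, 932 several and 9211 none, and only the first kind was used. Symbols came from the platform annotation and were updated through the RefSeq gene table for 34754 probesets. For 18194 genes, the value is that of the probeset with the highest mean over the 11 arrays other than the double knockout at 0 h, which correlated with no other array above 0.804. Genes were called measured at the 50th percentile of values on these arrays (3.83).

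Fits used limma 3.58.1 in R 4.3.3 (genotype additive, contrast 4 h minus the mean of 2 h and 8 h, eBayes, Benjamini-Hochberg) on genes whose mean reached the floor. The 6-array fit had 2 residual degrees of freedom, 6.09 prior degrees of freedom and a prior SD of 0.129 log2. It was tested on simulated data. Figures were drawn with matplotlib 3.10.9. Named genes are the 15 highest and 15 lowest wild-type differences, the 10 furthest above and the 10 furthest below both neighbours, the 10 largest calls each way, members past 1.5-fold of lists at least 0.2 from the overall median, and all cholesterol enzymes. Other genes were named after their values were seen. The genes, lists and tests were chosen with earlier results of these data known. Alternatives covered the probeset choice, array centring, the floor, the fold, the definition of a peak, the double-knockout arrays and an intensity trend.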

Additional observations from a re-analysis of the deposited data

Results flagged for a closer look

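Car3, Mup10 and Orly stood out because their middle-time differences had the opposite sign in the double knockout. They were -0.63, -0.54 and -0.54 against 1.16, 1.61 and 1.46 in wild type. At 2, 4 and 8 h the double knockout read 5.49, 4.60 and 4.98 for Car3, 6.01, 4.92 and 4.90 for Mup10 and 7.27, 6.38 and 6.57 for Orly. Each was highest at 2 h there, and Mup10 had no dip at 4 h. With 1 array per group, wild type and double knockout were not tested against each other. Against the difference shared by wild type and IRAK2 knockout, the double-knockout values were lower by limma estimates of -1.35, -1.55 and -1.33, with adjusted p-values of 0.153, 0.263 and 0.413.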

How the results depend on the processing

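No paired analysis was possible because each group has 1 array and the labels carry no replicate numbers, and no replicate could be left out. At 1.5-fold, the wild-type counts were 201 higher and 202 lower and the IRAK2-knockout counts 131 and 235. With 4 h set against the nearer of 2 h and 8 h, 9 wild-type genes were past 2-fold higher and 5 lower. With the mean over all probesets of a gene, the 2-fold counts were 9 higher and 7 lower in wild type and 6 and 9 in the IRAK2 knockout, the share of wild-type low genes shared by the knockout was 14.3%, and limma called 86 lower. Limma called 193 higher with the 75th percentile as floor, 196 higher and 297 lower with an intensity trend, and 0 and 3 with the double knockout added. The double knockout minus the shared difference gave 5 higher and 15 lower calls without probesets of the _x_at and _s_at kinds, 5 and 5 with arrays centred, 10 and 14 with no floor, 4 and 27 with the higher floor, and 10 and 32 with the trend. The cause was not tested. Without _x_at and _s_at probesets Hsd17b7 read -0.01 in wild type and Syne2 -0.25, with a shared Syne2 value of -0.29. The wild-type median of the cholesterol enzymes lay between 0.63 and 0.78 in these settings. Of the other results for single genes, 37 wild-type values moved and 22 calls were lost in the same direction, and 441 stayed.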
